A study of Mus musculus with 33 samples.

Results

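The comparison described here was made between microglia of the cerebellum (Cb) and microglia of the cortex (Cx) of adult mice, taken at postnatal day (P) 42. It used 8 of the 33 RNA-seq libraries of the series, the 4 labelled Cb at P42 and the 4 labelled Cx at P42, and each region held 2 libraries of female and 2 of male mice. The other libraries came from the corpus callosum (CC) at P42 and from the same 3 regions at P7 and P10, and they entered the fit and the comparisons between ages. Microglia were sorted by the authors as living CD45+ CD11b+ Gr1- cells from perfused brains, with no treatment in any group. The study kept wildtype C57BL/6J and Cx3cr1 GFP/WT mice, in which 1 copy of the fractalkine receptor gene is replaced by a green fluorescent protein, and it is not stated which of them gave the sorted cells. It is also not stated whether each library came from a separate animal or from pooled animals, so p-values measure a spread between libraries only. In the main fit that spread was estimated from all 33 libraries, with those of the CC and of the pups among them. Since the RNA of many cells was sequenced together, fewer cells that express a gene and less of its RNA per cell cannot be told apart.

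Microglia are the resident macrophages of the brain parenchyma. They depend on signals of the colony stimulating factor 1 receptor and of transforming growth factor beta, and in the healthy adult brain they carry a set of genes (P2ry12, Tmem119, Sall1 and others) that other macrophages largely lack. A second group of genes, with the lipid carrier Apoe, the lectin Clec7a, the receptor tyrosine kinase Axl and the lipase Lpl among them, is known to be raised in microglia of ageing, demyelinated or plaque-bearing brains and in microglia of developing white matter, and is called the priming or disease-associated group below. The Cb differs from the Cx in its cell types, with very dense granule neurons, Purkinje cells and a large white matter core.

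The files held reads per gene, and values are given as CPM, read counts scaled to a common library total with TMM factors, which align libraries on the bulk of their genes. Reads on genes ranged from 28692397 to 45057646 in the Cb libraries and from 29286256 to 38574198 in the Cx libraries, so that 1 read was worth between 0.023 and 0.0351 CPM. The mean distance of a library to the others of its group, on log2 CPM, was 66.28 to 75.72 in the Cb and Cx, and 131.37 to 156.8 in the CC at P42, whose libraries stood apart from each other. Genes that define microglia were read abundantly in both regions. Cx3cr1, the fractalkine receptor, was at 3246, 3020, 2862 and 3149 CPM in Cb replicates 1 to 4 and at 2998, 2982, 2880 and 3020 CPM in Cx replicates 1 to 4. Csf1r, the receptor of colony stimulating factor 1, was at 15412 ± 662 CPM (SD, n = 4) in the Cb and 15111 ± 505 CPM (SD, n = 4) in the Cx. All values written with ± below are means with the SD over the 4 libraries of a group, or over 3 at P7. The membrane protein Tmem119 and the transcription factor Sall1 also overlapped between the regions, with log2 fold changes (Cb over Cx) of -0.15 and -0.16. P2ry12, the purine receptor that guides microglial processes, did not overlap and was at 8373 ± 972 CPM in the Cb and 11983 ± 1200 CPM in the Cx (log2 fold change -0.52, standard error (SE) 0.09, adjusted p = 3.7e-04). Exons of Csf1r share 871 bases with Hmgxb3 on the other strand. The authors discarded reads that overlapped more than 1 gene, and the strand setting of the counting is not stated. Reads on shared bases may therefore have been lost from both genes, here and wherever a shared exon is named below.

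Marker genes of other cells were summed in each library to show what else the sorted samples held. The 10 astrocyte and Bergmann glia markers summed to 137 to 146 CPM in the Cb and 217 to 283 CPM in the Cx. Nearly all of it came from the glutamate transporter Slc1a3, which was at 137 ± 3.12 CPM and 248 ± 29.5 CPM, while Aqp4 was at 0.0984 and 0 CPM and Gfap at 0.856 and 0.424 CPM on average. The endothelial markers summed to 7.80 to 23.4 CPM in the Cb and 49.7 to 85.4 CPM in the Cx, led by Pecam1, with Cldn5 at 0 in both. The 13 border macrophage markers summed to 155 to 169 CPM in the Cb and 184 to 208 CPM in the Cx, of which Stab1 made 120 and 171 CPM. Smaller members of that list stood higher in the Cb, and none of them was called. Pf4 was at 5.86, 3.65, 2.53 and 3.96 CPM in the Cb and 1.54, 1.03, 1.25 and 0.614 CPM in the Cx. Ms4a7 was at 1.62, 1.54, 1.33 and 12.1 CPM against 0.0351, 0, 0.933 and 0 CPM, and Cd163 at 0.345, 3.23, 0.209 and 0.0230 CPM against 0 in every Cx library.

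Neuronal transcripts were low in both groups. The 8 markers of neurons in general summed to 6.91 to 13.8 CPM in the Cb and 3.81 to 6.76 CPM in the Cx, and the 9 Purkinje cell markers to 18.0 to 28.0 and 11.8 to 17.9 CPM, led by Rora. Among the 13 granule cell markers 10 were at 0 in all Cx libraries and 3 in all Cb libraries, and the sums overlapped, led by Nrep at 31.6 and 26.9 CPM. Neurod1 was at 1.21, 0.0593, 0.626 and 0.276 CPM and Calb2 at 1.07, 1.75, 1.04 and 0.460 CPM in the Cb, both with no read in the Cx, and Gabra6 had no read in either region. The cortical neuron markers summed to 1.72 to 3.48 CPM in the Cb and 3.88 to 8.14 CPM in the Cx. Of these Nrgn was at 0, 0, 0 and 0.0230 CPM in the Cb and 0.771, 1.48, 0.641 and 1.20 CPM in the Cx. Nrgn and Pecam1 were the only members of all 16 marker lists that were called. Dendritic cell markers were at 30.1 to 38.3 CPM in the Cb and 23.1 to 28.7 CPM in the Cx, led by Batf3. Monocyte, neutrophil, B cell, oligodendrocyte, oligodendrocyte precursor, pericyte, red cell and T and NK cell sums overlapped between the regions, and the sums of red cells and of T and NK cells stayed at or below 2.04 CPM. B cell sums were 518 to 560 CPM in the Cb and 469 to 592 CPM in the Cx, led by Ighm (458 and 481 CPM). Neutrophil sums were 214 to 303 and 231 to 316 CPM, led by Csf3r (260 and 267 CPM). Oligodendrocyte sums were 204 to 225 and 172 to 216 CPM, led by Cnp (131 and 134 CPM). The part of these markers in the results below was not tested.

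**Figure D1:**
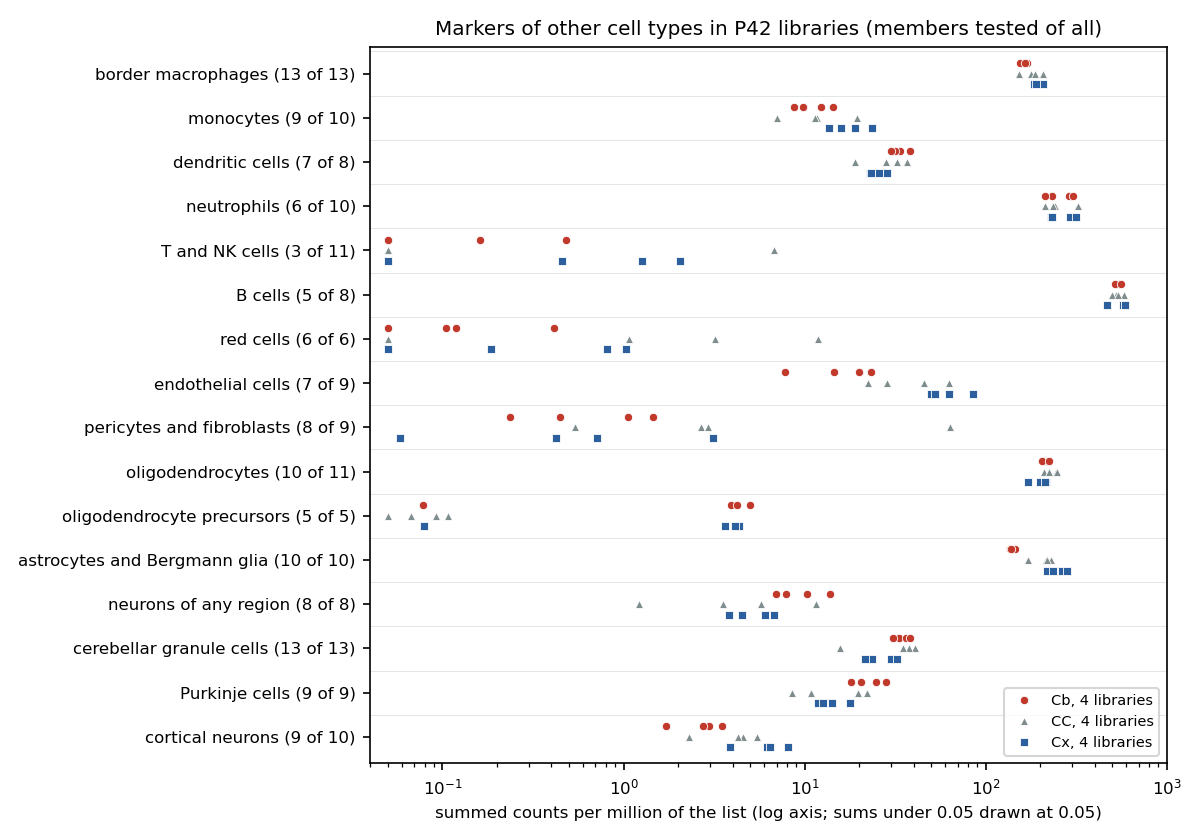
Summed CPM (log axis) of 16 lists of marker genes for cells other than microglia, with 1 point for each P42 library of the Cb, CC and Cx. Endothelial and astrocyte sums were lower in every Cb library (at most 23.4 and 146 CPM) than in every Cx library (at least 49.7 and 217 CPM), and the granule cell sums overlapped. The astrocyte sum came almost wholly from Slc1a3, while 7 of the 10 astrocyte markers had a log2 fold change above 0.

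The question of the comparison was which genes set adult Cb microglia apart from Cx microglia. A gene was called where its adjusted p did not exceed 0.01 and its log2 fold change was at least 1 in either direction. The test was edgeR's quasi-likelihood test with Benjamini-Hochberg adjustment over all 20917 genes tested, and adjusted p-values below come from it unless another is named. The test called 120 genes (0.574% of those tested), 84 higher (0.402%) and 36 lower (0.172%) in the Cb. The median log2 fold change over all genes tested was 0.02, and it was above 0 in 10718 of them. An unadjusted p under 0.05 was found in 3236 of the 20917. Counts in the gene lists below are to be read against these numbers and the 0.574% of calls. Among the 9387 genes that averaged 5 CPM or more in the higher region, the 4 Cb and 4 Cx libraries did not overlap for 1486 (15.8%). Separation alone was therefore common and is given below with the test. Of the called genes, 73 of the 84 higher and 32 of the 36 lower averaged 5 CPM or more in the higher region, and 80 of the 84 and 32 of the 36 did not overlap. A further 230 genes had an adjusted p of 0.01 or less with a smaller change, 95 of them higher and 135 lower in the Cb. DESeq2 called 295 genes, a fit of the 12 P42 libraries alone 48, and 72 were called by the fit of these 8 libraries with the replicate number as a block.

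**Figure D2:**
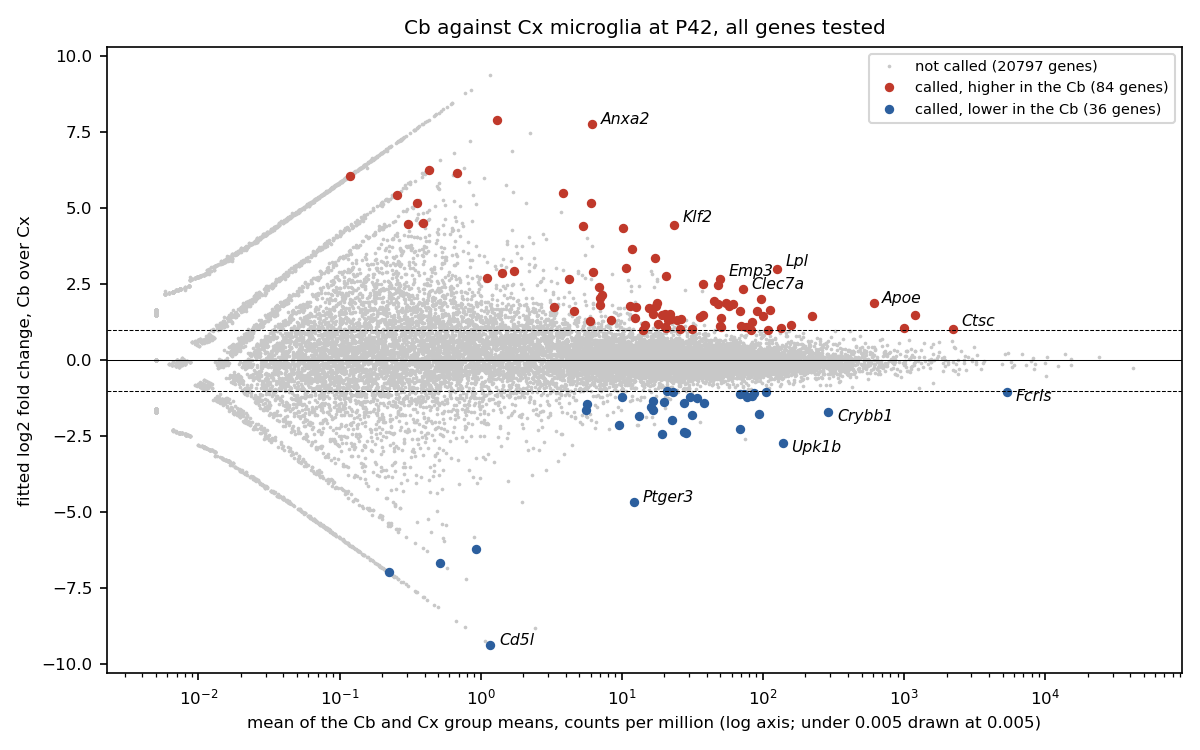
Fitted log2 fold change (Cb over Cx) of each of the 20917 genes tested against the mean of both group means in CPM (log axis), with the 84 genes called higher in red and the 36 called lower in blue. Dashed lines mark a log2 fold change of 1 in either direction, and the diagonal bands at low CPM are genes with reads in few libraries.

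Genes of transcriptional control, lipid uptake and the cell surface were among the 15 largest increases with at least 5 CPM and no overlap. Klf2, a Kruppel-like zinc finger factor known to restrain the inflammatory activation of monocytes and endothelium, was at 40.9, 38.9, 36.0 and 64.2 CPM in Cb replicates 1 to 4 and at 1.93, 1.45, 2.30 and 2.55 CPM in Cx replicates 1 to 4. Every Cb library held more than 10 times the CPM of every Cx library, a 21.8-fold difference (log2 fold change 4.45, SE 0.29, adjusted p = 9.8e-12). Lpl, lipoprotein lipase, which frees fatty acids from lipoprotein particles, was at 250, 232, 212 and 199 CPM in the Cb and 27.4, 27.5, 20.2 and 36.3 CPM in the Cx. These groups lay far apart, with an 8.01-fold difference (SE 0.19 on the log2 scale, adjusted p = 9.6e-12). Emp3, a small membrane protein of the peripheral myelin protein family, was at 76.8, 86.1, 79.6 and 103 CPM in the Cb and 10.3, 17.3, 12.7 and 13.3 CPM in the Cx. It did not overlap and was 6.42-fold higher (log2 fold change 2.68, SE 0.16, adjusted p = 1.9e-12).

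Further increases were found in a regulator of ion transport and in a receptor for dying cells. Fxyd5, a membrane protein that modulates the sodium pump, was at 34.3, 40.2, 34.3 and 35.7 CPM in the Cb and 7.40, 5.07, 2.83 and 5.81 CPM in the Cx, with no overlap (log2 fold change 2.78, SE 0.28, adjusted p = 2.3e-07). Axl, which takes up Gas6-coated dying cells, was at 68.3, 63.7, 77.7 and 45.5 CPM in the Cb and 5.51, 10.1, 10.8 and 18.3 CPM in the Cx. All Cb libraries were above the highest Cx library, and the difference was 5.71-fold (SE 0.34 on the log2 scale, adjusted p = 1.5e-05).

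Several of the largest increases came from genes that were near the detection limit in the Cx. Anxa2, a membrane-binding annexin, was at 6.82, 16.2, 12.7 and 13.4 CPM in the Cb and 0.0351, 0.106, 0.0292 and 0.0323 CPM in the Cx. The Cx values stood for 7 reads in all, against 1814 in the Cb, which gave a ratio of 236 with a 95% interval of 114 to 588 that covers counting error only (exact interval). Dna2, a nuclease and helicase of DNA replication, was at 2.58, 6.76, 10.9 and 9.57 CPM in the Cb and 0, 0.396, 0 and 0.226 CPM in the Cx (log2 fold change 5.50, SE 0.94, adjusted p = 3.7e-04). Neither gene overlapped, and each had a Cx library at no more than 1 read. In the fit of the 12 P42 libraries alone neither was called (adjusted p = 0.021 for Anxa2 and 0.12 for Dna2), and Dna2 was not called either in the fit of only these 8 libraries, with or without the replicate block (0.016 and 0.017).

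Of the remaining increases, Igf1, a growth factor of developing microglia, was at 11.1, 5.63, 6.60 and 6.24 CPM in the Cb and 0.140, 3.43, 0.466 and 0.355 CPM in the Cx. Slc2a6, a hexose transporter, was at 19.5 ± 3.45 CPM in the Cb and 0.948 ± 0.988 CPM in the Cx. Others were Cyp4f18, a cytochrome that hydroxylates leukotrienes (10.2 ± 2.12 CPM and 0.477 ± 0.484 CPM), Lilrb4a, an inhibitory receptor (21.8 ± 8.56 CPM and 1.73 ± 1.08 CPM), Cybb, the catalytic subunit of the phagocyte NADPH oxidase (19.1 ± 6.48 CPM and 2.34 ± 2.40 CPM), and Vim, the intermediate filament vimentin (11.0 ± 1.13 CPM and 1.45 ± 0.729 CPM). Their log2 fold changes were 2.68, 4.36, 4.41, 3.65, 3.03 and 2.91. No Cx library reached the lowest Cb library for any of them. Igf1 was not called by limma-voom (adjusted p = 0.022), with the 12 P42 libraries alone (0.14), or with only these 8 libraries, without the replicate block (0.13) or with it (0.070). Calls of the other 5 depended on single libraries. Cyp4f18 was not called without any 1 of the 8 libraries (adjusted p 0.011 to 0.036), nor was Slc2a6 without Cx replicate 1 or 2 (0.015 and 0.019). Lilrb4a was not called without Cb replicate 2 or 4 or Cx replicate 1, 2 or 4 (0.010 to 0.026). The same held for Cybb without Cb replicate 2 or 3 or Cx replicate 1 or 4 (0.016 to 0.028) and for Vim without Cb replicate 2, 3 or 4 or Cx replicate 1, 3 or 4 (0.010 to 0.027). Over all 19 alternative settings the highest adjusted p of Cyp4f18, Slc2a6, Lilrb4a, Cybb and Vim was 0.052, 0.036, 0.026, 0.10 and 0.027, and the lowest 7.1e-06, 1.3e-06, 2.1e-06, 1.5e-05 and 2.1e-05. Lilrb4a also shares 114 exon bases with its paralog Lilr4b, and Cyp4f18 shares 181 with Zfp961 and Anxa2 98 with Gm16144 on the other strand.

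**Figure D3:**
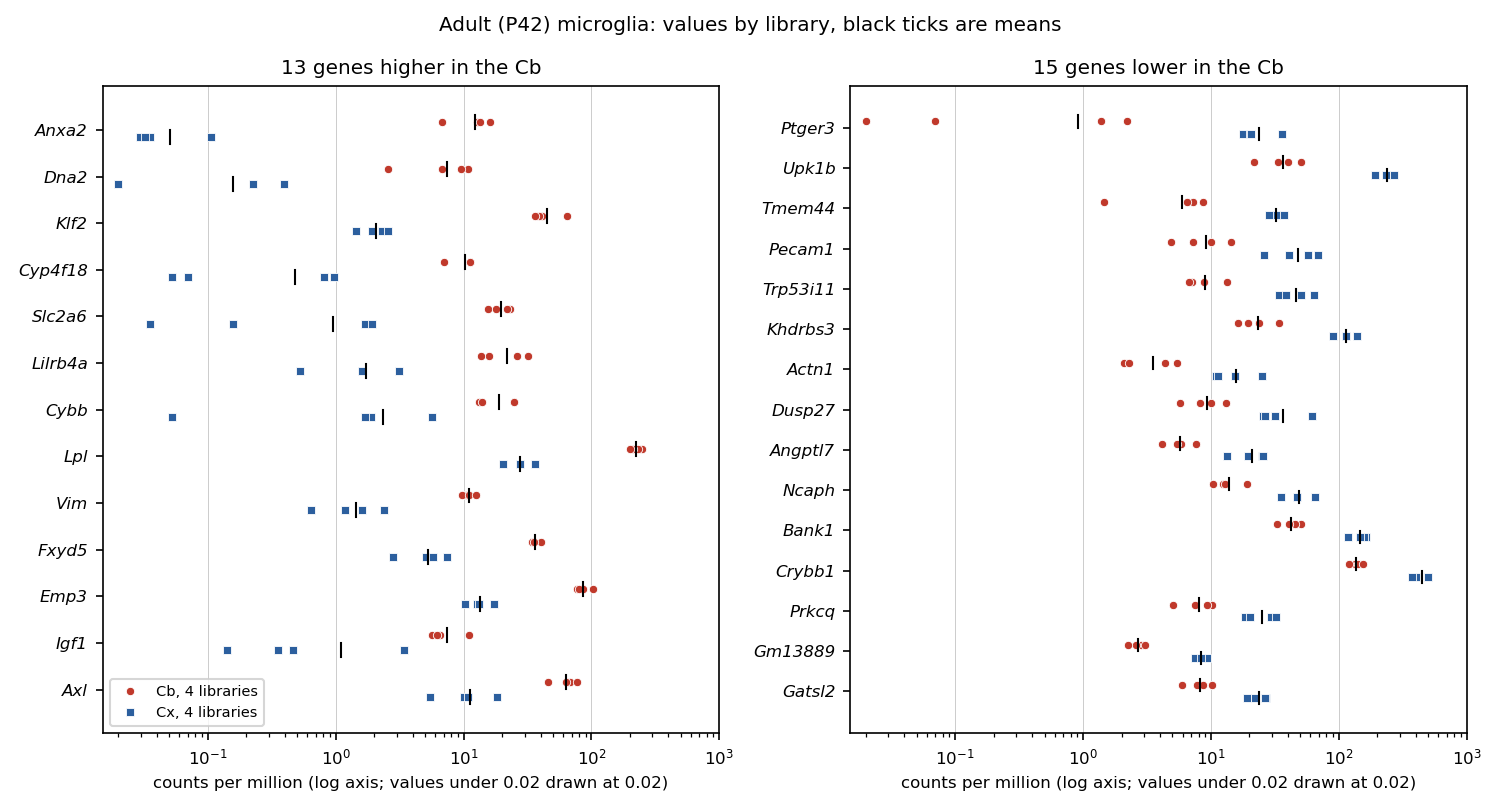
CPM (log axis) in each of the 4 Cb libraries (red circles) and 4 Cx libraries (blue squares) of P42 for 13 of the 15 largest increases (left) and the 15 largest decreases (right) among called genes with at least 5 CPM in the higher region and no overlap, with black ticks at the group means. Klf2 runs from 36.0 to 64.2 CPM in the Cb against 1.45 to 2.55 CPM in the Cx, and Crybb1 from 120 to 155 against 372 to 503 CPM.

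Promoters of these genes were read for short motifs of factors that act in macrophages. RefSeq promoters (GRCm38.p6, 250 bases before to 50 after the start site) were at hand for 11 of the 15 increases and 10 of the 15 decreases, and both strands were searched. The pattern TGANTCA, written for AP-1 with any letter in the middle, was found in Anxa2, Cybb and Igf1. These are 3 of the 11 increases (27.3%), beside 0 of the 10 decreases and 5.1% of the 12091 promoters of tested genes. The match read TGAGTCA in Anxa2 and TGAATCA in Cybb and Igf1. These forms were not counted apart, so the shares hold for the loose pattern only. The interferon response element GAAANNGAA was found 3 times in Cybb, at 167, 123 and 29 bases before the start site, and once each in the decreased genes Bank1 and Angptl7, against 7.3% of all promoters. GGGNNTTCC (NF-kB) was found in Vim, Fxyd5 and the decreased gene Actn1 (7.1% of all), TGACGTCA (CRE) in the decreased gene Ncaph (3.1%), and TATTTNTA (MEF2, 3.3%) and GAGGAAGT (PU.1, 3.1%) in none of the 21. A match is a string of letters in a window of this size, and binding was not measured. The 3 promoters with a TGANTCA match are shown as increased genes, and Bank1 is shown as a decreased gene with another motif. The lines give the strand of the gene 5′ to 3′, with matches in capitals, for Anxa2 (chr9:69453433-69453732, plus strand), Cybb (chrX:9469275-9469574, minus strand), Igf1 (chr10:87860861-87861160, plus strand) and Bank1 (chr3:136326017-136326316, minus strand).
Anxa2: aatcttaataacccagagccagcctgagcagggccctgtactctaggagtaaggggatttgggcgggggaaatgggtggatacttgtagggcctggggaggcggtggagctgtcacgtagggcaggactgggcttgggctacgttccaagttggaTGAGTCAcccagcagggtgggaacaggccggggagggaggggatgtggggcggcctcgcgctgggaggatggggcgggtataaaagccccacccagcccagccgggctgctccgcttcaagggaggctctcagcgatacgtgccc
Cybb: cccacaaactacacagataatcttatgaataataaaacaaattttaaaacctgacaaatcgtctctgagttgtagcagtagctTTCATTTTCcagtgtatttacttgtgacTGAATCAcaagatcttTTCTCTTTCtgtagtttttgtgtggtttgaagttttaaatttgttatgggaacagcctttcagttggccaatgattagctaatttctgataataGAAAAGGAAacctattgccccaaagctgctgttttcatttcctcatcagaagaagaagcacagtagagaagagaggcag
Igf1: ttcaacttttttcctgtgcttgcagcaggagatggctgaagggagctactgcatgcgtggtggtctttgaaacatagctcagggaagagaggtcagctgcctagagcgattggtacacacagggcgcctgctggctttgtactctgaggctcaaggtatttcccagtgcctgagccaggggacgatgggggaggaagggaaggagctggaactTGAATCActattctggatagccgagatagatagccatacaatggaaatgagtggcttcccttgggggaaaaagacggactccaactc
Bank1: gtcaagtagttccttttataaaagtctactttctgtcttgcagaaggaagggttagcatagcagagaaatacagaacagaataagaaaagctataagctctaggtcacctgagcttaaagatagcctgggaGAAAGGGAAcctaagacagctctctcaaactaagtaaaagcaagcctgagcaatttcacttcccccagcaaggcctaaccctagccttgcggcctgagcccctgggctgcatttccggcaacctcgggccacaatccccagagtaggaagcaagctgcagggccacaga
In Anxa2 and Igf1 the TGANTCA match began 95 and 37 bases before the start site, and in Cybb it lay 139 bases before it, between the first and second of the 3 interferon elements.

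Membrane, splicing and signalling genes were among the 15 largest decreases. Upk1b, a tetraspanin of the uroplakin family, was at 40.1, 21.7, 33.5 and 50.4 CPM in the Cb and 264, 269, 193 and 235 CPM in the Cx. The Cx libraries were all above 190 CPM and the Cb libraries at or below 50.4 CPM, a 6.59-fold difference (log2 fold change -2.72, SE 0.34, adjusted p = 5.1e-06). Crybb1, a beta crystallin that is also a microglial marker, was at 133, 120, 142 and 155 CPM and 503, 502, 399 and 372 CPM. Its groups did not overlap and its standard error was among the smallest of the named genes (log2 fold change -1.69, SE 0.10, adjusted p = 1.9e-12). Khdrbs3, an RNA-binding splicing regulator, was at 23.6, 19.5, 16.4 and 34.1 CPM in the Cb and 114, 113, 89.9 and 139 CPM in the Cx, 4.87-fold lower with no overlap (SE 0.21 on the log2 scale, adjusted p = 3.7e-08). Bank1, a scaffold of B cell receptor signalling, was at 50.7, 33.0, 45.8 and 40.6 CPM and 162, 158, 118 and 146 CPM (log2 fold change -1.78, SE 0.18, adjusted p = 2.5e-07).

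Pecam1, an adhesion molecule of endothelium, platelets and some leukocytes, was at 14.3, 7.29, 4.86 and 9.99 CPM in the Cb and 57.3, 69.1, 25.9 and 40.5 CPM in the Cx. The groups did not overlap, and the gene was 5.31-fold lower in the Cb (log2 fold change -2.41, SE 0.32, adjusted p = 1.5e-05). Of the other endothelial markers, none of which was called, Kdr was at 6.92 and 13.4 CPM, Cdh5 at 0.178 and 0.824 CPM, Flt1 at 0.0172 and 0.213 CPM and Cldn5 at 0 (Cb and Cx means), and their part in the Pecam1 value was not tested. Milr1, an inhibitory receptor of mast cells and other myeloid cells, lies beside Pecam1 on chromosome 11 (GRCm38), at 106751226 to 106768794 after Pecam1 at 106654217 to 106750628. It moved the other way, with 52.4 ± 3.01 CPM in the Cb and 19.5 ± 5.39 CPM in the Cx (log2 fold change 1.42, adjusted p = 4.7e-05). Exons of Milr1 share 132 bases with Polg2 on the other strand.

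Other genes among the 15 largest decreases were Tmem44, a membrane protein (5.98 ± 3.14 CPM in the Cb, 32.4 ± 4.03 CPM in the Cx), Ptger3, a prostaglandin E receptor (0.920 ± 1.08 CPM and 23.6 ± 8.25 CPM), and Trp53i11, a p53-induced gene (8.98 ± 3.05 CPM and 46.6 ± 13.4 CPM). To these came Actn1, an actin crosslinker (3.55 ± 1.63 CPM and 15.7 ± 6.50 CPM), Ncaph, a condensin subunit (13.8 ± 3.70 CPM and 48.7 ± 12.3 CPM), and Prkcq, a protein kinase of lymphocyte signalling (8.01 ± 2.30 CPM and 25.1 ± 6.92 CPM). The last of the 15 were Angptl7, a secreted angiopoietin-like protein (5.76 ± 1.46 CPM and 20.8 ± 5.63 CPM), Dusp27 (9.31 ± 3.15 CPM and 36.3 ± 17.0 CPM), Gatsl2 (8.15 ± 1.79 CPM and 23.8 ± 3.72 CPM) and Gm13889 (2.68 ± 0.342 CPM and 8.40 ± 0.760 CPM). Their log2 fold changes ran from -4.67 in Ptger3 to -1.55 in Gatsl2. Ptger3 had the weakest support, with 0.0689, 1.39, 2.22 and 0 CPM in the Cb and an adjusted p of 0.0097. It was not called without any 1 of the 8 libraries (0.010 to 0.037). Nor was Prkcq without any but Cx replicate 3 (0.010 to 0.036), Gatsl2 without any but Cx replicate 4 (0.010 to 0.032), or Trp53i11 without Cb replicate 1, 2 or 3 or Cx replicate 1 or 2 (0.014 to 0.024). Over the 19 settings the adjusted p of Ptger3, Prkcq, Gatsl2 and Trp53i11 reached 0.051, 0.052, 0.032 and 0.024 at most and 1.7e-05, 3.3e-04, 1.3e-04 and 2.5e-05 at least. With the 12 P42 libraries alone, Tmem44 (0.024), Actn1 (0.050), Angptl7 (0.035), Dusp27 (0.017), Ncaph (0.012) and Gm13889 (0.11) were not called. Gm13889 shares 289 exon bases with Gm27027 on the same strand.

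Of the 42 microglial identity genes, all tested, 3 were called, Upk1b, Crybb1 and Fcrls, each of them lower in the Cb, and the median log2 fold change was -0.08 against 0.02 over all genes. Fcrls, an Fc receptor-like scavenger protein of mouse microglia, was at 3429, 3185, 3788 and 3501 CPM in the Cb and 7483, 7351, 6580 and 7232 CPM in the Cx. Its regions were well apart at a 2.06-fold difference (log2 fold change -1.04, SE 0.08, adjusted p = 1.7e-10), which lies close to the limit of the call. Without Cb replicate 2 the change fell just short of that limit and the gene was not called, at an adjusted p of 2.6e-09. It had an adjusted p between 2.8e-37 and 1.4e-04 over the 19 settings. A smaller difference past the same p limit was seen for 8 more members, 6 lower and 2 higher in the Cb. The lower ones were the fructose transporter Slc2a5 (882 ± 121 CPM and 1666 ± 100 CPM, log2 fold change -0.92), Ltc4s (-0.61), Ecscr (-0.57), P2ry12 above, Aif1, which encodes Iba1 (-0.46), and the lectin Siglech (-0.44). Higher were the fatty acid receptor Gpr84 (0.77) and the inhibitory receptor Lair1 (0.66).

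Fcrls lies on chromosome 3 (87250758 to 87263738) near 2 other genes that were called lower in the Cb, Cd5l (87357881 to 87371073) and Fcrl1 (87376387 to 87402934), which belong to scavenger and Fc receptor-like families. Cd5l, a scavenger protein secreted by macrophages, had no read in the 4 Cb libraries and was at 1.72, 3.22, 2.59 and 1.84 CPM in the Cx. With a floor of 3 counts per library, 0.0849 CPM on average, Cd5l was at least 27.6-fold lower in the Cb (adjusted p = 1.1e-04, with 0.039 for the 12 P42 libraries alone and 0.033 for these 8 with the replicate block). Fcrl1 was at 54.5, 31.0, 51.7 and 48.4 CPM in the Cb and 107, 111, 84.3 and 125 CPM in the Cx, with no overlap (log2 fold change -1.21, SE 0.15, adjusted p = 7.4e-06).

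All members of the priming or disease-associated list that passed the test were higher in the Cb. Of its 32 genes, all tested, 10 were called higher and 0 lower (31.2% called, against 0.574% of all genes), and the median log2 fold change was 1.30. Of these genes 16 of the 26 members with at least 5 CPM did not overlap and were higher in the Cb, with 0 that did not overlap and were lower. Among all 9387 genes with at least 5 CPM, 678 did not overlap and were higher, and 808 did not overlap and were lower. The 26 members alone had a median of 0.62, against -0.04 for all genes at that level. The list holds genes the study names as raised in CC microglia at P7. It was also written with earlier results of these data known, so its direction is not independent evidence. The study no longer saw these genes raised at P10, and describes microglia of all regions as similar at P42. Its staining showed no CLEC7A protein in Cb white matter microglia at any age, and SPP1 in some of them at P7. The values here are of RNA. Between 6 (limma-voom) and 12 (DESeq2) of its members were called over the 19 settings. The lipid carrier Apoe was at 732, 592, 1164 and 1344 CPM in the Cb and 387, 217, 176 and 254 CPM in the Cx. The lowest Cb library was above the highest Cx library, and the difference was 3.71-fold (log2 fold change 1.89, SE 0.21, adjusted p = 7.5e-07). In limma-voom the adjusted p of Apoe was 0.98, where the precision weights of the gene ran from 42.7 to 67758660.1 between libraries, a ratio of 1585269. The ratio was 13 for Cd14 and 18 for Klf2. For Apoe the range over the 19 settings was 4.9e-18 to 0.98.

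Clec7a, the beta-glucan receptor dectin, was at 124, 112, 134 and 113 CPM in the Cb and 16.1, 33.9, 27.1 and 18.8 CPM in the Cx. No values overlapped, with a 5.04-fold difference (log2 fold change 2.33, SE 0.25, adjusted p = 5.3e-07). Lyz2, lysozyme, was at 264, 261, 388 and 401 CPM and 104, 104, 138 and 131 CPM, and Anxa5, an annexin that binds phosphatidylserine, at 84.8, 102, 118 and 112 CPM and 23.7, 33.8, 36.0 and 42.9 CPM. Both were separated as well, at log2 fold changes of 1.46 (SE 0.13) and 1.61 (SE 0.19). The fatty acid carrier Fabp5 (2.49 ± 1.13 CPM and 0.326 ± 0.287 CPM) and Gas7, a membrane-bending protein of phagocytic cups (3.05 ± 2.07 CPM and 0.397 ± 0.175 CPM), were called at low levels (adjusted p = 6.9e-04 and 5.1e-04), together with Axl, Igf1, Lpl and Lilrb4a above. Neither Fabp5 nor Gas7 was called by limma-voom (0.068 and 0.025), with the 12 P42 libraries alone (0.16 and 0.27), or with only these 8 libraries, without the block (0.10 and 0.061) or with it (0.10 and 0.17). Gas7 shares 66 exon bases with Glp2r on the other strand.

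Other members of the list did not pass the test. Cst7 was at 9.26 ± 2.41 CPM in the Cb and 12.0 ± 3.02 CPM in the Cx (adjusted p = 0.50). Tyrobp, the adaptor of Trem2, had a log2 fold change of -0.30 (adjusted p = 0.080), and Trem2, of the identity list, one of 0.08 (0.76). The cathepsin Ctsz (0.43), the tetraspanin Cd9 (0.54), ferritin Fth1 (0.62) and Cd52 (0.65) passed the p limit with changes below 1. Spp1, osteopontin, was at 46.8, 37.8, 23.6 and 15.6 CPM in the Cb and 5.58, 4.09, 6.71 and 2.84 CPM in the Cx. It did not overlap but missed the limit (log2 fold change 2.68, SE 0.68, adjusted p = 0.021), and it was called in 4 of the 19 other settings. Lgals3, galectin 3, at 20.3, 40.2, 32.6 and 20.4 CPM and 1.40, 5.81, 3.32 and 4.43 CPM, just missed the limit (log2 fold change 2.92, adjusted p = 0.010) and was called in 8 of them. Their adjusted p ranged from 0.0019 to 0.96 for Spp1 and from 1.6e-04 to 0.053 for Lgals3 over the settings. Exons of Spp1 share 309 bases with Gm42793 on the same strand. Itgax, the integrin CD11c, was at 12.8 ± 1.34 CPM and 5.26 ± 2.79 CPM (adjusted p = 0.096), and Gpnmb overlapped (0.086). F13a1 was at 1.69, 8.68, 0.548 and 1.01 CPM in the Cb, led by replicate 2, and 0.0351, 0.158, 0 and 0 CPM in the Cx (0.11).

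**Figure D4:**
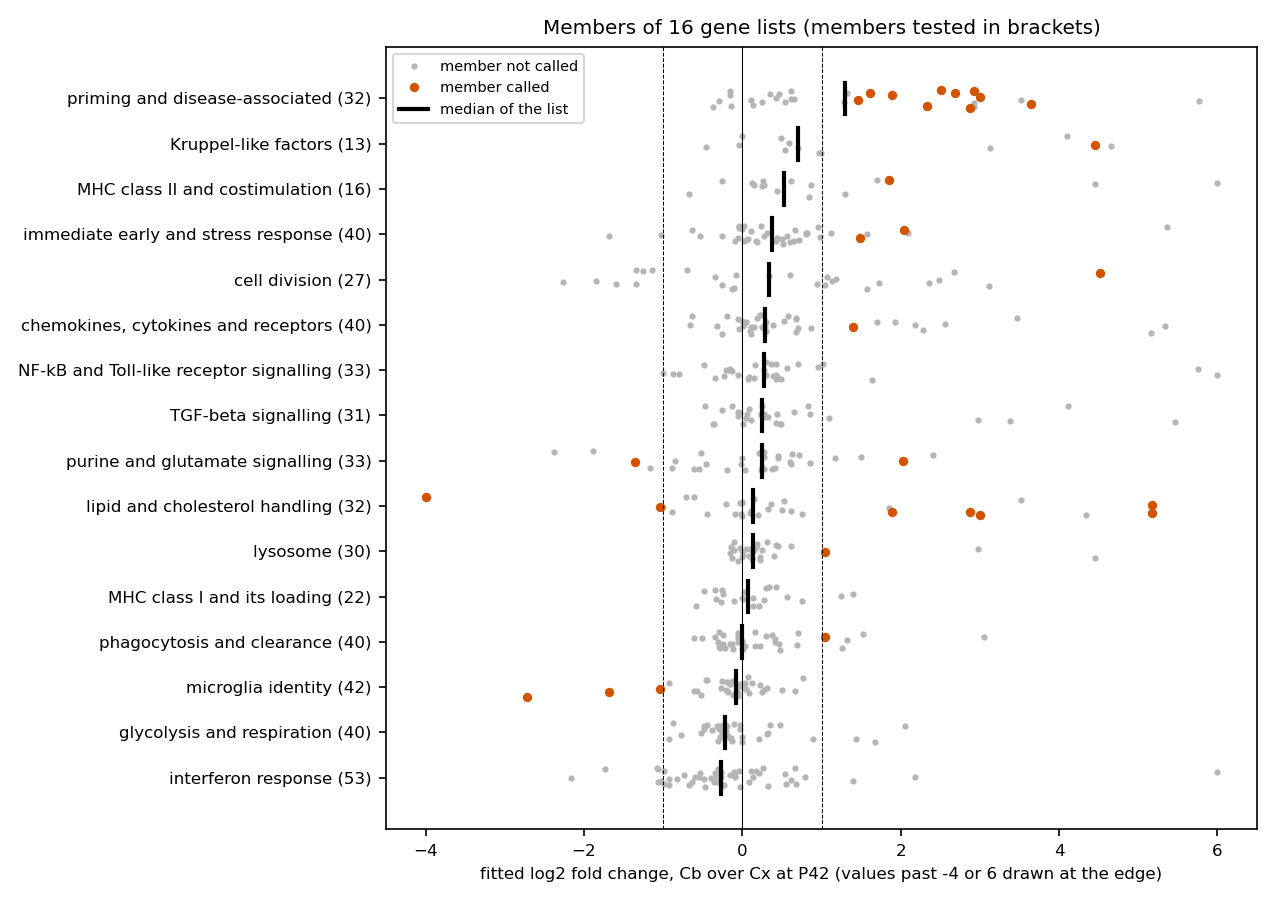
Fitted log2 fold changes (Cb over Cx at P42) of the tested members of 16 gene lists, ordered by the list's median (black bar), with called members in orange and the others in grey. The priming list has 10 called members, all to the right, at a median of 1.30, while the interferon list has none at a median of -0.27.

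Lipid and cholesterol genes moved in both directions. Of the 32 tested, 5 were called higher and 2 lower (21.9%, against 0.574% of all genes), with a median of 0.13. Higher were, among others, Lpl, Fabp5, Apoe and its chromosomal neighbour Apoc1. The last was at 1.55, 0.148, 0.418 and 0.644 CPM in the Cb and at 1 read in 2 of the 4 Cx libraries, a ratio of 42.8 with a counting interval of 11.5 to 359. Apoc1 (19689481 to 19692660) and Apoe (19696109 to 19699188) lie side by side on chromosome 7. Apoc1 was not called by limma-voom (adjusted p = 0.016), with the 12 P42 libraries alone (0.11), or with only these 8 libraries, without the block (0.11) or with it (0.21). Lower were Cd5l and Scd2, a stearoyl-CoA desaturase, at 75.1, 60.6, 64.4 and 73.5 CPM in the Cb and 135, 147, 138 and 143 CPM in the Cx. The Scd2 groups did not overlap (log2 fold change -1.04, SE 0.14, adjusted p = 1.5e-05), and without Cb replicate 2 the change was -0.98 at an adjusted p of 2.6e-04, between 3.0e-10 and 0.0073 over the settings. The cholesterol exporter Abcg1 (log2 fold change -0.71, adjusted p = 1.5e-04) and the lipase Mgll (-0.89, 1.4e-04) were lower in the Cb by less than the fold limit. Plin2, which coats lipid droplets (0.75, 0.0060), was higher by less than it. The exporter Abca1, at 188 ± 14.2 CPM and 287 ± 29.3 CPM, did not pass the p limit (adjusted p = 0.053) and was called in none of the 19 settings.

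Of the innate receptor and lysosome lists, single members were called. Cd14, the coreceptor of lipopolysaccharide, was at 1410, 1368, 1309 and 1256 CPM in the Cb and 659, 591, 647 and 686 CPM in the Cx. It was 2.07-fold higher without overlap (SE 0.11 on the log2 scale, adjusted p = 2.4e-07) and was the 1 gene called of 40 tested phagocytosis and clearance genes, whose median was 0. Gsn, Cd36, Grk6 and Scarb1, which the study names for phagocytosis, were not called by edgeR, with log2 fold changes of 1.52, 1.32, -0.31 and 0.47, while DESeq2 called Gsn (1.54, adjusted p = 0.0027). Ctsc, cathepsin C, was at 2823, 2786, 3157 and 3136 CPM and 1306, 1351, 1541 and 1587 CPM (log2 fold change 1.04, SE 0.10, adjusted p = 4.3e-08). It was called alone among 30 lysosome genes (median 0.13), where Ctsl, Ctsz and Ctsh passed the p limit with changes of 0.40, 0.43 and 0.61. Of the 33 NF-kB and Toll-like receptor genes 0 were called by edgeR, with 16 at an unadjusted p under 0.05 and a median of 0.27, and DESeq2 called 0 as well, while 1, Tlr5, was called with only these 8 libraries in the fit (-1.01, adjusted p = 0.0092). The 1 member past the p limit was Tlr2, the receptor of bacterial lipopeptides, at 545 ± 20.1 CPM and 280 ± 44.6 CPM (log2 fold change 0.96, adjusted p = 2.9e-05). Its ends with at least 5 CPM were Bcl3, an atypical IkB protein (6.74 ± 2.52 CPM and 2.17 ± 0.773 CPM, 0.25), and the flagellin receptor Tlr5 (15.4 ± 2.19 CPM and 30.8 ± 2.92 CPM, 0.14).

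Among 40 tested chemokines, cytokines and their receptors 1 was called (median 0.28). Csf2ra, the alpha chain of the granulocyte and macrophage colony stimulating factor receptor, was at 67.9, 79.4, 74.8 and 68.5 CPM in the Cb and 26.0, 31.5, 27.8 and 24.6 CPM in the Cx. It did not overlap (log2 fold change 1.40, SE 0.16, adjusted p = 7.5e-07). Its partner chain Csf2rb was at 80.8 ± 18.1 CPM and 72.8 ± 8.83 CPM (adjusted p = 0.77). The cytokine Il1b and the chemokines Ccl3 and Ccl4 overlapped between the regions (adjusted p = 0.91, 0.44 and 0.51).

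Of 33 purine, glutamate and ion channel genes 1 was called in each direction (median 0.25). Kcnj2, an inwardly rectifying potassium channel, was at 176, 162, 145 and 137 CPM in the Cb and 36.0, 35.8, 59.9 and 20.3 CPM in the Cx. All Cb libraries were above 130 CPM and all Cx libraries below 60 CPM (log2 fold change 2.03, SE 0.39, adjusted p = 0.0017). P2rx1, an ATP-gated channel, was at 8.58, 13.5, 8.98 and 13.1 CPM and 26.4, 34.7, 23.4 and 29.4 CPM and separated downwards (log2 fold change -1.36, SE 0.26, adjusted p = 0.0017). Kcnj2 was not called without Cx replicate 1 or 4 (0.010 and 0.012, 4.6e-06 to 0.016 over all settings), nor P2rx1 without Cb replicate 1 or 3 or Cx replicate 2 (0.011 to 0.013, and 1.6e-06 to 0.14). Slc1a3 of this list, which is also the leading astrocyte marker above, was at 140, 136, 140 and 134 CPM in the Cb and 263, 282, 217 and 231 CPM in the Cx (log2 fold change -0.85, adjusted p = 1.5e-04).

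Kruppel-like factors and genes of the early response were higher in the Cb where they passed the p limit. Klf2 was the 1 gene called of 13 tested Kruppel-like factors (median 0.70). Klf6 (432 ± 46.4 CPM in the Cb, 220 ± 27.8 CPM in the Cx, log2 fold change 0.97, adjusted p = 5.3e-07) and Klf7 (0.70, 0.0060) passed the p limit just below it in size. Of 40 immediate early and stress genes 2 were called higher and 0 lower (median 0.37). Fos was at 9.68, 17.2, 9.19 and 9.18 CPM in the Cb and 1.44, 3.99, 1.84 and 3.75 CPM in the Cx, highest in Cb replicate 2 and with no overlap (log2 fold change 2.04, SE 0.39, adjusted p = 0.0017). Ier2, another immediate early gene, was at 39.8, 59.3, 68.4 and 55.2 CPM and 15.7, 13.9, 28.8 and 21.3 CPM, also with no overlap (log2 fold change 1.48, SE 0.28, adjusted p = 0.0011). Jun (0.57), Zfp36 (0.60), Nfkbia (0.81) and Cebpd (0.65) passed the p limit with changes below 1. Egr1, another gene of rapid induction, was at 25.4, 23.9, 24.9 and 10.4 CPM in the Cb and 12.6, 11.8, 34.4 and 21.5 CPM in the Cx, with overlap. Genes of this kind respond to tissue dissociation, and the part of the sorting procedure in these values was not tested. Fos was not called without Cb replicate 2 or Cx replicate 1 or 3 (0.010 to 0.014, and 1.6e-07 to 0.057 over all settings).

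Antigen presentation differed at the invariant chain. Cd74, which escorts class II molecules, was at 105, 74.1, 60.3 and 143 CPM in the Cb and 25.0, 32.2, 23.5 and 25.4 CPM in the Cx. Replicates 1 and 4 of the Cb were the highest, the groups did not overlap, and the difference was 3.60-fold (log2 fold change 1.85, SE 0.32, adjusted p = 4.5e-04). With the 12 P42 libraries alone its adjusted p was 0.028. It was the 1 gene called of 16 tested in the class II and costimulation list (median 0.53). The class II chains H2-Ab1, at 48.6, 31.9, 28.1 and 56.8 CPM and 24.0, 26.7, 22.8 and 17.3 CPM, H2-Aa, at 12.5, 5.78, 2.45 and 21.2 CPM and 3.72, 6.68, 2.19 and 4.43 CPM, and H2-Eb1 had adjusted p-values of 0.043, 0.74 and 0.64. Of 22 class I and loading genes 0 were called by edgeR or under any other setting, with 8 at an unadjusted p under 0.05 and a median of 0.07. H2-D1 had a log2 fold change of 0.56 (adjusted p = 0.0051), the immunoproteasome subunit Psmb9 one of -0.59 (0.023), and H2-Q6, whose reads are split among near-identical copies, one of 1.24 (0.54).

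The interferon response list held 53 tested genes, 0 of them called by edgeR. An unadjusted p under 0.05 was found in 9 of the 53, against 3236 of all 20917 genes tested. The median log2 fold change of the list was -0.27, and between -0.38 and -0.10 over the settings. Between 0 and 1 of its genes were called in those settings. Values of its members varied within regions. Ifit3, an interferon-induced antiviral protein, was at 14.9, 20.6, 29.4 and 10.2 CPM in the Cb and 31.7, 23.2, 16.7 and 81.5 CPM in the Cx, with Cx replicate 4 the highest and with overlap (adjusted p = 0.42). The ends of the list with at least 5 CPM were Cxcl10 at 8.85 ± 6.05 CPM and 1.95 ± 2.73 CPM and Ifi47 at 1.90 ± 1.62 CPM and 6.34 ± 5.13 CPM, both overlapping.

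Of 40 glycolysis and respiration genes 0 were called by edgeR and by DESeq2. At an unadjusted p under 0.05 were 19, against 3236 of all 20917 genes tested. A log2 fold change above 0 was found in 9, against 10718 of the 20917, and the median was -0.22. Past the p limit with a smaller decrease were 3 genes. These were Ldhb, a lactate dehydrogenase (300 ± 22.0 CPM in the Cb, 553 ± 85.5 CPM in the Cx, log2 fold change -0.88, adjusted p = 5.8e-07), Idh2 (-0.49, 4.3e-04) and Aldoa (-0.48, 0.0074). Pgk1, a glycolytic kinase, was at 3.62, 4.95, 2.71 and 3.91 CPM and 7.36, 7.47, 6.79 and 7.37 CPM (log2 fold change -0.93, adjusted p = 0.014). It was called without Cb replicate 2 (log2 fold change -1.08, adjusted p = 0.0091), with adjusted p from 2.3e-05 to 0.38 over the settings, and Aldoc was at 7.26 ± 2.19 CPM and 1.76 ± 1.32 CPM (0.19). Transforming growth factor beta signalling had 0 of 31 genes called by edgeR and by DESeq2, 1 by limma-voom, and 11 at an unadjusted p under 0.05, with a median of 0.25, the receptors Tgfbr1 and Tgfbr2 at -0.05 and 0.25, and Tgif1 and Eng as its ends at 0.49 and -0.47.

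Most cell division genes were at low levels at P42, and 5 of the 27 averaged 5 CPM or more in the higher region. Mki67, a marker of cycling cells, was the 1 called of 27 (median 0.34, from -0.12 to 0.73 over the settings, and -0.13 for the 5 members with at least 5 CPM). It was at 0.207, 0.267, 2.30 and 0.253 CPM in the Cb and 0.0351, 0.0528, 0.0292 and 0 CPM in the Cx, so that Cb replicate 3 held most of the reads. The Cx values stood for 4 reads in all, and the ratio of 26.0 had a counting interval of 9.87 to 96.9. The call (adjusted p = 0.0096) was lost without Cb replicate 3 (log2 fold change 2.88, adjusted p = 0.15) or without any 1 of the Cx libraries (0.029 at the least), and over all settings the adjusted p ran from 2.5e-04 to 0.39. Dlgap5, Casc5 and Wee1, further called genes of mitosis outside the list, were looked at after their values were seen. Dlgap5 was at 0.448, 0, 2.51 and 0.460 CPM in the Cb, again highest in replicate 3, and Casc5 at 0.0345, 0.652, 1.64 and 0 CPM, while Wee1 was highest in replicate 1 (1.79, 0.0296, 0.0522 and 0.138 CPM). Pcna was at 19.9 ± 1.39 CPM and 21.1 ± 1.87 CPM and Mcm5 at 6.75 ± 4.11 CPM and 11.0 ± 6.93 CPM (adjusted p = 0.88 and 0.33).

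A total of 31 genes, 23 higher and 8 lower in the Cb, were called in the main test and under all 19 alternative settings. They include Klf2, Emp3, Lpl, Fxyd5, Axl, Clec7a, Anxa5, Lyz2, Cd14, Ctsc, Csf2ra, Ier2, Upk1b, Pecam1, Khdrbs3, Bank1 and Crybb1 above, and 13 others that were chosen after their values were seen, of which Fcrl1 and Milr1 were given with their neighbours. Lsp1, an actin-binding protein of leukocytes, was at 171 ± 15.6 CPM in the Cb and 54.4 ± 3.59 CPM in the Cx, with no overlap (log2 fold change 1.65, SE 0.10, adjusted p = 1.9e-12). Ly9, a receptor of the signalling lymphocytic activation family, was at 69.6, 58.5, 113 and 87.5 CPM and 12.1, 6.47, 21.8 and 18.3 CPM (log2 fold change 2.49, SE 0.28, adjusted p = 9.6e-07). Naaa, an acid amidase of the lysosome that degrades N-acylethanolamines, was at 138 ± 12.3 CPM in the Cb and 44.6 ± 2.13 CPM in the Cx. Nceh1, a cholesteryl ester hydrolase of macrophages, was at 85.6 ± 10.3 CPM and 23.5 ± 9.19 CPM, and Ifi30, a lysosomal thiol reductase, at 216 ± 31.9 CPM and 97.9 ± 16.2 CPM. The actin regulators Flna (147 ± 11.9 CPM and 53.5 ± 11.4 CPM) and Capg (95.4 ± 2.15 CPM and 43.4 ± 5.78 CPM) were also higher. So were the transcripts AU020206 (89.4 ± 10.5 CPM and 25.8 ± 5.37 CPM) and Gm8995 (75.0 ± 16.6 CPM and 20.9 ± 3.13 CPM). Lag3, an inhibitory receptor that binds class II molecules, was at 20.1, 16.7, 29.3 and 18.4 CPM in the Cb and 57.3, 52.9, 60.4 and 52.8 CPM in the Cx, lower in every Cb library (log2 fold change -1.40, SE 0.18, adjusted p = 5.3e-06). The membrane protein Tmem144 was at 50.9 ± 5.71 CPM and 116 ± 13.6 CPM. Ifi30 shares 85 exon bases with RP23-410L16.8 on the other strand.

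Whether the regional difference at P42 was already there in the pups was read from the P7 and P10 libraries, which share no library with the adult comparison. Between the Cb and Cx, 31 genes were called at P10 (0.148%) and 63 at P7 (0.301%). Of the 120 genes called at P42, 12 were called at P10, which is 12 of the 31, and 14 at P7, which is 14 of the 63, and the direction was the same for all of them but Lag3. The 84 genes higher in the adult Cb had a median log2 fold change of 0.29 at P10 and 0.28 at P7, and the 36 lower genes of -0.29 and -0.06, beside -0.02 and 0 over all genes tested.

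Part of the difference was present at all 3 ages. Clec7a was at 59.4 ± 11.7 CPM in the Cb and 7.06 ± 0.617 CPM in the Cx at P10 and at 141 ± 12.7 CPM and 11.3 ± 0.559 CPM at P7. Its log2 fold changes were 3.65 at P7, 3.07 at P10 and 2.33 at P42. Apoe was far above its adult level in the pups, at 13587 ± 681 CPM in the Cb and 2847 ± 644 CPM in the Cx at P7, and its log2 fold change was 2.25 at P7, 2.46 at P10 and 1.89 at P42. Lyz2 (1.71, 1.57 and 1.46), Cd74 (2.82, 2.87 and 1.85), Anxa5 (1.42, 1.11 and 1.61), Igf1 (3.75, 2.28 and 2.68), Nceh1 (2.37, 1.59 and 1.87) and, on the lower side, Khdrbs3 (-1.66, -1.27 and -2.28) were called at each age. Of the priming list 13 members were called at P7, 10 at P10 and 10 at P42, all higher in the Cb, with medians of 1.45, 1.33 and 1.30.

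**Figure D5:**
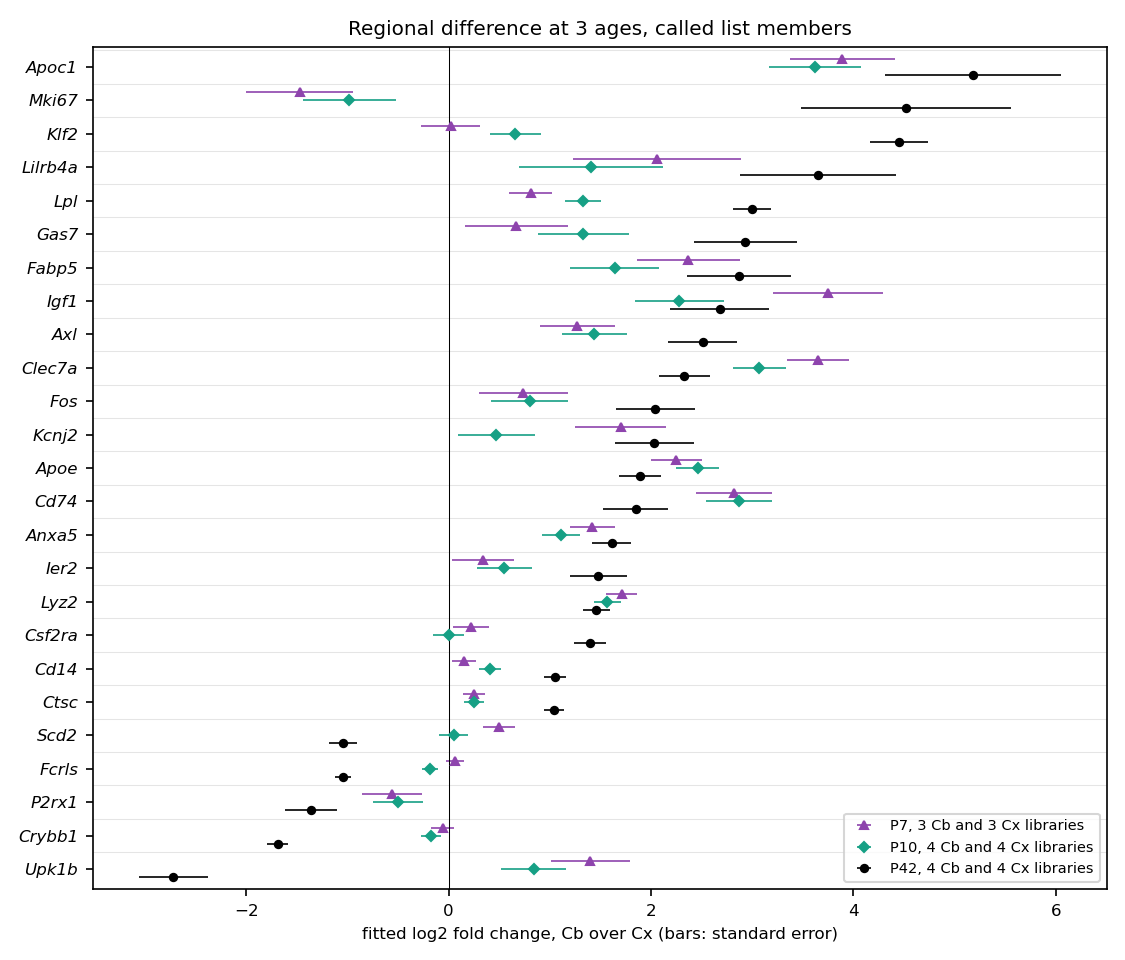
Fitted log2 fold changes (Cb over Cx) with standard errors at P7, P10 and P42 for list members called at P42, without Cd5l, which had no read in the adult Cb. Clec7a, Apoe, Cd74 and Igf1 lie to the right of 0 at all 3 ages, while Klf2 moves from 0.02 at P7 to 4.45 at P42 and Upk1b from 1.40 to -2.72.

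For other genes the regional difference was not the same in the pups and the adult. The test of the difference between the regional changes at P42 and at P10 called 54 of 20917 genes (0.258%), and that of P42 and P7 called 100 (0.478%). The first count was 32 without Cb P10 replicate 3, 33 without Cx P10 replicate 3 and 34 without Cb P10 replicate 1 or without Cx P10 replicate 2 or 4. These tests contain the P42 libraries that chose the genes, and so the values of single genes are given side by side. Emp3 was at 121 ± 2.87 CPM in the Cb and 114 ± 14.3 CPM in the Cx at P7, at 65.9 ± 3.02 CPM and 67.7 ± 4.90 CPM at P10, and at 86.3 ± 11.6 CPM and 13.4 ± 2.87 CPM at P42. The Cx level at P42 was below that of every other group given, and the difference of the log2 fold changes was 2.72 against P10 (SE 0.21, adjusted p = 3.6e-09) and 2.59 against P7. Klf2 had been at 21.7 ± 2.57 CPM in the Cb and 21.3 ± 8.73 CPM in the Cx at P7, at 33.6 ± 4.26 CPM and 21.3 ± 2.28 CPM at P10, and differed from P10 by 3.79 (SE 0.37, adjusted p = 1.1e-07). Crybb1 was at 599 ± 27.8 CPM in the Cb and 675 ± 32.2 CPM in the Cx at P10, and its difference of -1.52 (SE 0.14, adjusted p = 6.0e-08) set the adult apart from the pups.

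Upk1b was low in the pups, at 11.8 ± 2.95 CPM in the Cb and 4.46 ± 0.229 CPM in the Cx at P7 and at 48.2 ± 10.8 CPM and 27.0 ± 10.3 CPM at P10. At P42 it stood at 36.4 ± 12.1 CPM in the Cb and 240 ± 34.9 CPM in the Cx. The difference of the log2 fold changes was -3.56 against P10 (SE 0.46, adjusted p = 3.1e-05). Lag3 was higher in the Cb of the pups, at 56.4 ± 4.75 CPM against 11.4 ± 1.17 CPM in the Cx at P7 and 71.4 ± 13.1 CPM against 29.3 ± 6.62 CPM at P10, for a log2 fold change of 2.31 at P7 (adjusted p = 1.5e-08) and 1.29 at P10 (6.6e-05). At P42 the order was turned, and the difference was -2.69 against P10 (adjusted p = 6.0e-08) and -3.71 against P7 (adjusted p = 5.3e-10). Pecam1 was at 63.1 ± 9.41 CPM in the Cb and 44.5 ± 5.36 CPM in the Cx at P10 (difference -2.91, adjusted p = 3.1e-04). Cd5l had 3.84 ± 2.97 CPM in the Cb and 4.29 ± 1.77 CPM in the Cx at P10, and no read in the adult Cb.

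The adult CC, a white matter region, offers a further reference, with the reserve that its libraries stood apart from each other and that each comparison with it shares the Cb or Cx libraries. Between the Cb and CC 88 genes were called (0.421%) and between the CC and Cx 51 (0.244%). The first count was 45, 46 and 54 without Cb replicate 1, 2 or 3 and 143 without CC replicate 3. It was 1 with only these groups in the fit, 173 with limma-voom and 418 with DESeq2, so that the single adjusted p-values below hold for the fit of all libraries. Klf2 was at 24.7 ± 10.4 CPM in the CC, with a log2 fold change of 0.86 for Cb over CC (adjusted p = 0.044) and 3.59 for CC over Cx (2.2e-09). Lpl was at 152 ± 46.9 CPM (0.55, adjusted p = 0.078 for Cb over CC, and 2.45, adjusted p = 2.2e-09 for CC over Cx). In the same order, Emp3 was at 46.8 ± 7.53 CPM (0.88, 6.7e-04 and 1.80, 9.6e-09), Clec7a at 86.8 ± 42.3 CPM (0.48, 0.26 and 1.85, 9.6e-05) and Apoe at 1050 ± 189 CPM (-0.13, 0.80 and 2.02, 1.0e-06). For these 5 genes the CC was nearer to the Cb than to the Cx on the log2 scale.

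For 5 of the leading decreases the CC mean was nearer to that of the Cx. Upk1b was at 166 ± 35.9 CPM in the CC (-2.19 for Cb over CC, adjusted p = 2.4e-04, and -0.53 for CC over Cx, 0.41). Crybb1 was at 362 ± 22.5 CPM (-1.40, 6.2e-10 and -0.30, 0.14), Khdrbs3 at 100 ± 18.4 CPM (-2.10, 1.0e-06 and -0.19, 0.72), and Bank1 and Pecam1 at 96.6 ± 23.2 CPM and 32.6 ± 15.3 CPM. The split was not clean. Among the 15 largest decreases the CC was nearer to the Cb for Gatsl2 (-0.39 and -1.15), Actn1 (-0.89 and -1.25) and Angptl7 (-0.91 and -0.94). Among the increases the CC was nearer to the Cx for Kcnj2, at 47.6 ± 27.2 CPM (1.70, 0.010 and 0.32, 0.74). It was slightly so for Slc2a6, at 3.91 ± 3.40 CPM (2.32, 0.10 and 2.03, 0.22). Cd5l had no read in the CC either.

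Sex was balanced within both regions, and the regional difference was compared between the sexes. No gene was called for a different Cb to Cx change in females and males by edgeR, with 1160 of 20917 genes at an unadjusted p under 0.05. Likewise 0 were called with RLE factors and 0 with the 12 P42 libraries alone (1166 and 740 at an unadjusted p under 0.05). With 2 libraries per region and sex, a difference between the sexes may be present below what this test can show. Klf2 had log2 fold changes of 4.56 in females and 4.37 in males, Emp3 of 2.56 and 2.80, Lpl of 3.13 and 2.86, Crybb1 of -1.99 and -1.38 and Upk1b of -3.11 and -2.35.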

How the data were processed

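RNA of sorted microglia was amplified with the SMARTer v4 kit, which does not mark strand, and sequenced by the authors after Nextera XT tagging. Per the labels and the study's methods, the authors converted base calls with CASAVA 1.8.2, aligned reads to GRCm38 with STAR 2.5.2b and counted them per gene with featureCounts 1.6.2, leaving out reads that mapped to several places or to more than 1 gene. The deposited table holds these raw counts for 48587 genes and 92 spike-in sequences, which took 594 reads in all and were left out.

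Samples were grouped by their labels. The 17212 genes without a read and the 10458 with the lowest summed counts (26 reads or fewer over 33 libraries) were removed, as in the study's methods, which left 20917. The authors tested with limma-voom 3.38. Here edgeR 4.0.16 (R 4.3.3, TMM factors, robust quasi-likelihood test, Benjamini-Hochberg adjustment) was fitted to all 33 libraries with 1 coefficient for each of 9 region and age groups, and a call needed an adjusted p of at most 0.01 and a log2 fold change of at least 1 in either direction. CPM were computed here from the counts. The detection limit was 3 counts. On simulated counts of 20917 genes for this comparison the test called 26 of 100 genes changed by a factor of 2, 74 of 100 changed by a factor of 4 and 0 unchanged genes. The changed genes averaged at least 1 CPM in the Cx, and counts were drawn with the fitted spread. Changes in genes at lower levels were thus not tried. At a factor of 2 the median absolute log2 fold change was 0.99, just under the limit of a call.

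Named genes were the 15 largest increases and 15 largest decreases among called genes that averaged 5 CPM or more in the higher region, with no overlap of libraries, all called members of the pathway lists, identity genes, genes the study names, and, in lists without a call, the ends with at least 5 CPM. Some of these genes are not reported here. The members and lists were chosen with earlier results of these data known. Alternatives were DESeq2 1.42.0, limma-voom (limma 3.58.1), RLE factors, other filters, sex or replicate number as a term, fits of fewer groups, and leaving out each library. A fit without the CC libraries of P42 was chosen after seeing the data. Reads can also be split or lost where exons of named genes overlap others, with 212 shared bases for Psmb9 and Tap1, 161 for Bcl3 and Gm16175, 133 for Cxcl10 and Art3, 111 for Ifi47 and Olfr56, 61 for Eng and Fpgs, 61 for Scd2 and Mir5114, 60 for Fxyd5 and Mir7050, 12 for Cd74 and Mir5107 and 9 for P2ry12 and Med12l. H2-Q6 and Gm8995 have near-identical copies, so their counts are uncertain.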

Additional observations from a re-analysis of the deposited data

Results flagged for a closer look

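In 16 of 174 pairs of a named gene and a group of 4 adult libraries, 1 library stood apart from the other 3 by Dixon's ratio at its 95% critical value, where chance gives about 1 in 20. In the Cb, replicate 2 was lowest for Cyp4f18 (7.02 CPM) and highest for Fos (17.2 CPM), Cd36 (4.53 CPM, the others at 0) and F13a1 (8.68 CPM). Cb replicate 3 was highest for Mki67 (2.30 CPM), and Cb replicate 4 for Tmem119 (6245 CPM), Scarb1 (52.2 CPM) and Lsp1 (194 CPM). In the Cx, replicate 2 was highest for Anxa2 (0.106 CPM), Igf1 (3.43 CPM) and Ptger3 (35.8 CPM), and replicate 1 for Dusp27 (61.4 CPM) and Gpnmb (1.82 CPM). Cx replicate 3 was lowest for Pgk1 (6.79 CPM), and Cx replicate 4 was highest for Cd36 (1.81 CPM) and lowest for Eng (102 CPM).

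For 21 named genes the difference between the Cb and Cx, on the log2 scale, was itself different at P42 and at P10 (edgeR's test of the difference, same limits as for a call). Over all genes tested it was 54 of 20917 (0.258%). Most named genes were chosen by their call in the same P42 libraries that enter this test. Their count is therefore no independent evidence. The P42 value exceeded that of P10 by 5.74 for Dna2, 3.79 for Klf2, 4.32 for Cybb, 1.68 for Lpl, 2.53 for Fxyd5, 2.72 for Emp3, 1.40 for Csf2ra, 5.50 for Mki67, 1.54 for Ifi30, 1.43 for Lsp1 and 1.44 for Milr1. It was lower, with differences of -3.56 for Upk1b, -2.91 for Pecam1, -1.74 for Ncaph, -1.52 for Crybb1, -2.12 for Gm13889, -1.09 for Scd2, -1.24 for Abca1, -1.18 for Fcrl1 and -2.69 for Lag3. Cd5l had a fitted difference of -9.21, which is no bound since the gene had no read in the adult Cb.

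Against P7, 25 named genes differed in the same way, beside 100 of all 20917 genes tested (0.478%). The choice of the named genes limits this count too. The P42 value was higher by 4.42 for Klf2, 2.19 for Lpl, 2.48 for Fxyd5, 2.59 for Emp3, 1.18 for Csf2ra, 5.99 for Mki67, 2.13 for AU020206, 1.29 for Capg, 1.79 for Flna, 1.39 for Ifi30, 1.62 for Lsp1, 1.67 for Milr1 and 1.49 for Naaa. The differences were -4.12 for Upk1b, -2.87 for Pecam1, -1.63 for Crybb1, -2.07 for Gm13889, -1.10 for Fcrls, -1.54 for Scd2, -3.03 for Itgax, -2.22 for Abca1, -1.23 for Fcrl1, -3.71 for Lag3 and -1.02 for Tmem144, and -10.77 for Cd5l with the same reserve. Lag3 was the 1 gene among those called at P42 and in pups whose direction was the opposite in the pups.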

How the results depend on the processing

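Of the values that 90 named genes took under 19 alternatives, 1549 kept their side of the limits, 146 lost a call and 15 gained one. No called gene changed direction, and no gene was called in the opposite one. Changes of sign in genes that were not called were counted as keeping their side. Of the 62 named genes called, 31 were called under all 19. The 120 genes called between the Cb and Cx became 295 with DESeq2 and 48 with the 12 libraries of P42 alone (42 of them among the 120), while 86 were called with only the 8 libraries compared. Leaving out 1 library gave 85 (without Cx replicate 1) to 116 (without Cx replicate 3), and 165 were called without the CC libraries of P42, a fit chosen after seeing the data. The 54 genes of the test against P10 became 165 with DESeq2 and 32 to 50 when 1 library was left out, and the 100 of the test against P7 became 243 with DESeq2, 163 without the CC libraries of P42 and 83 to 106 when 1 library was left out. The 88 genes called between the Cb and CC became 418 with DESeq2, 173 with limma-voom, 1 with only these groups in the fit and 45 to 143 when 1 library was left out. The cause of these changes was not tested.

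The replicate number as a block gave 110 genes between the Cb and Cx (102 shared with the 120), and 72 with only these 8 libraries in the fit. Same-numbered Cb and Cx libraries deviated together with r of 0.039, 0.049, 0.015 and 0.067, all positive but none over 0.1, the limit set for taking the numbers as pairs. Of the 4 Cb libraries, 1, 2 and 4 went best with their own number among the Cx, and 3 went best with Cx replicate 4. Replicates 1 and 2 were female and 3 and 4 male in both regions. Same-sex pairs with different numbers gave r of 0.034, 0.044, 0.041 and 0.049, within the range of the same-numbered pairs. No pairing by number is therefore read from these values, and the design does not state one. With the block in the fit of all libraries, the tests against P10 and P7 gave 45 and 98 genes and Cb against CC gave 69. Genes under about 0.1 CPM stood on 3 reads or fewer per library.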
